A study of Homo sapiens with 24 samples.

Results

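The genes of the ephrin and Eph families and of the semaphorin, neuropilin and plexin families were taken from 4 comparisons of an aneuploid human cell line with its parental line. Members were the rows named EFNA or EFNB with a digit, EPHA or EPHB with a digit, SEMA with a digit, PLXN with a letter from A to D, and NRP1 and NRP2, and no antisense gene matched. They were 51 of the 16742 genes found in any of the 4 tables. The 27 ligands were 5 EFNA, 3 EFNB and 19 semaphorin genes, and the 24 receptors were 8 EPHA, 5 EPHB, 9 plexin and 2 neuropilin genes.

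The parental cells were HCT116, a human colorectal carcinoma line, and RPE1, human retinal pigment epithelial cells immortalized with telomerase. The asterisk in HCT116* and RPE1* marks cells that stably express histone H2B fused to GFP. Each of these was the parental line of the aneuploid line with the same mark. The labels give HCT116 and HCT116* a lower modal chromosome number, the most frequent number per cell, than RPE1 and RPE1*. HCT116 5/4 carried 4 copies of chromosome 5, HCT116* 8/3 c7, which is 1 clone, carried 3 copies of chromosome 8, RPE1 5/3 12/3 carried 3 copies of chromosome 5 and a spontaneously gained copy of chromosome 12, and RPE1* 21/3 carried 3 copies of chromosome 21. The extra chromosomes had been moved by microcell transfer, and all lines grew in the same serum medium without further treatment. Messenger RNA was sequenced in 3 libraries of each of the 8 groups, 24 libraries in all, and no library was shared between comparisons. The labels do not say that the 3 libraries of a group came from separate cultures, so that the errors may describe technical spread alone. The comparisons ask how a gained chromosome changes the transcriptome of otherwise isogenic cells. Each gained karyotype was represented by 1 line, so that changes of the line itself cannot be told apart from those of the gained chromosome.

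Ephrins are ligands held at the cell surface, EFNA proteins by a lipid anchor and EFNB proteins by a transmembrane stretch, and Eph receptors are the receptor tyrosine kinases that bind them on a neighbouring cell. Signals run into both cells, and they control repulsion, adhesion and the sorting of cells, in the intestine also the boundary between stem cells and differentiated cells. Semaphorins are secreted or membrane-bound guidance proteins whose main receptors are the plexins, and most secreted semaphorins need a neuropilin as the binding partner of a plexin. Neuropilins also act as co-receptors for vascular endothelial growth factors. All of these families are best known from growing axons and blood vessels and are also expressed in epithelial and carcinoma cells.

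The tables gave 1 mean per gene over both groups of libraries, with the log2 fold change of the aneuploid line against its parental line and the standard error, and no value of a single library. Below, the means of the 2 groups were estimated from that mean and the fold change and are written in normalized counts, and ± is the standard error of the log2 fold change for 3 libraries against 3. A gene was called when its mean was at least 10, its adjusted p was under 0.05 and its absolute log2 fold change was above 0.60. The tables held 46 members for HCT116 5/4, 46 for HCT116* 8/3 c7, 47 for RPE1 5/3 12/3 and 46 for RPE1* 21/3, and 42, 41, 46 and 44 of them had a mean of at least 10. All 4 tables listed 39 members. Each table was normalized by itself, and levels set across tables carry that limit.

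On the scale of mean normalized count per kb of exons, 4 of the 7 classes had the same highest member in all 4 tables. In 3 classes of ligands it differed between the HCT116 and the RPE1 tables. These levels are means over both groups of a comparison, so that a group alone can have another leader. EPHA2, the ephrin receptor typical of epithelial cells, led the EPHA class in every table with 1006 to 2127 per kb. EPHB4, the usual receptor of EFNB2, led the EPHB class at 673 and 736 per kb in the HCT116 tables and at 374 and 332 per kb in the RPE1 tables. PLXNB2, a plexin for class 4 semaphorins, led the plexins in every table with 1417 to 1567 per kb. In the aneuploid group of RPE1 5/3 12/3 alone, the estimated mean of PLXNA4 stood above that of PLXNB2 per kb. The leading ligands differed between the tables of the 2 parental cells. EFNA3, EFNB1 and SEMA6B led their classes in both HCT116 tables, at 265, 164 to 202 and 812 to 1016 per kb, whereas EFNA4, EFNB3 and SEMA3C led them in both RPE1 tables, at 88.0 to 98.0, 181 to 219 and 2347 to 2483 per kb. By the estimated group means, EFNB2 stood above EFNB1 per kb in parental HCT116 and in HCT116* 8/3 c7. Of the reads on EFNA3 and EFNA4 a part may be shared, since 46.9% and 15.1% of their exon bases overlap the read-through gene EFNA4-EFNA3.

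NRP1, the neuropilin that binds SEMA3A, showed the widest range of the class leaders. Its level was 65.9 and 6.53 per kb in the tables of HCT116 5/4 and HCT116* 8/3 c7, and 3733 and 2232 per kb in those of RPE1 5/3 12/3 and of RPE1* 21/3. EPHA3, EPHA5 and EPHA6 had a row in the RPE1 tables and in neither HCT116 table, and EPHA10, EPHA8, SEMA3G and SEMA5B had one in the HCT116 tables and in neither RPE1 table. The plot of levels per kb shows these leaders by class and table.

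**Figure D1:**
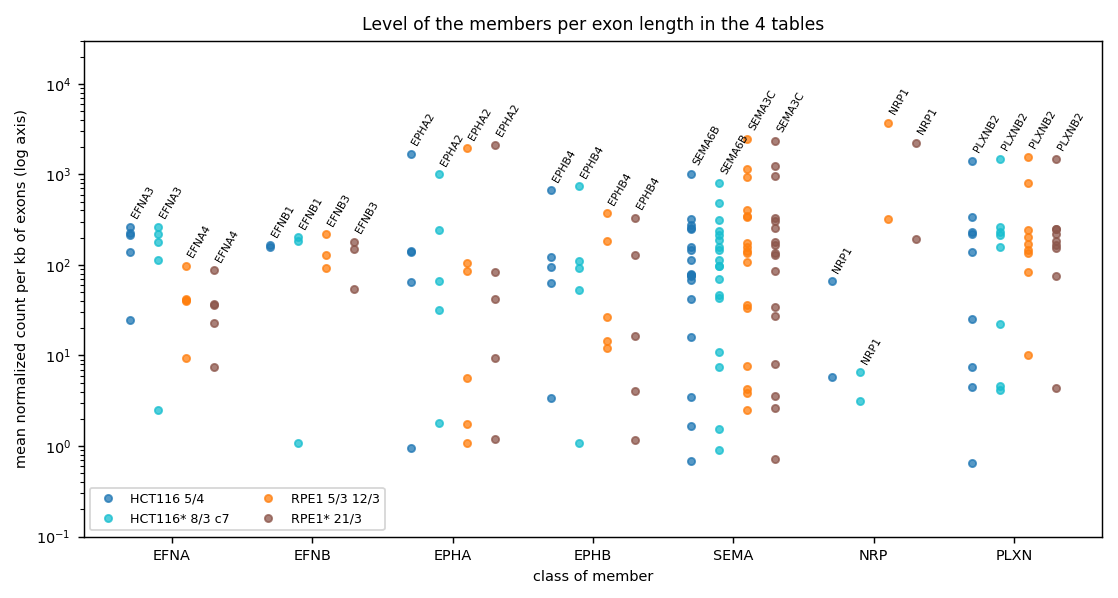
Mean normalized count per kb of exons (log axis) of every member, by class and by table, each point 1 gene over the 6 libraries of a comparison and the highest gene of each class named. EPHA2, EPHB4 and PLXNB2 lead their classes in all 4 tables, and NRP1 lies at 65.9 and 6.53 in the HCT116 tables against 3733 and 2232 in the RPE1 tables.

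The markers of the labelled cells were checked in the same tables. The HCT116 tables held EPCAM, CDH1, CDX2, KRT8, KRT18 and KRT20, 6 of 10 colorectal markers with a mean of at least 10, while VIL1, CDX1 and CEACAM5 had no row. The RPE1 tables held the pigment epithelium factors MITF, at 1439 and 1124, and OTX2, at 715 and 419, but TYR and TYRP1 had no row and RPE65 was at 10.4 and 4.58, below its means of 287 and 194 in the HCT116 tables. In HCT116 5/4 the epithelial genes EPCAM and CDH1 fell (log2 fold changes of −2.57 and −2.34) and the mesenchymal gene VIM rose (2.74), in the same libraries in which the members below changed. KRT8 and KRT18 rose there and KRT20 fell. The summed estimated mean of the 10 colorectal markers, mostly KRT8 and KRT18, went from 62011 to 133117 there. Of the 6 mesenchymal markers 3 were higher and 1 was lower there, and their summed estimated mean went from 1905 to 2961. Of the 10 pigment epithelium markers 3 were lower in RPE1 5/3 12/3 (BEST1, RPE65 and MITF) and 1 was higher (RLBP1), and the summed estimated mean of that list, mostly KRT8 and KRT18, went from 35550 to 33163. Of the 6 mesenchymal markers COL1A1 alone was called there, going from 6662 to 736 (−3.18 ± 0.28), and the summed estimated mean of that list went from 566958 to 566506. CD14, a myeloid gene on chromosome 5, was called higher in both lines that gained that chromosome, with means of 22.4 and 11.6, PECAM1 was called higher in RPE1 5/3 12/3 with a mean of 14.6, and TUBB3 rose in HCT116 5/4, while CD3E, CDH5 and ELAVL4 had no row in any table. The part of these changes in the results below was not tested. No marker of any list was called in HCT116* 8/3 c7 or RPE1* 21/3.

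The members, like all genes, were called more often in the 2 lines that gained chromosome 5 than in the others. Those 2 lines carry no H2B-GFP and the other 2 do, so that the 2 traits cannot be told apart here. For HCT116 5/4, 15 of 42 members were called, 10 higher and 5 lower, where 20.6% of all genes were called, 10.8% higher and 9.83% lower. For RPE1 5/3 12/3, 20 of 46 members were called, 8 higher and 12 lower, where 16.6% of all genes were called, 8.13% higher and 8.47% lower. For HCT116* 8/3 c7, 2 of 41 members were called, both higher, beside 1.80% of all genes, 0.945% higher and 0.858% lower. For RPE1* 21/3, 4 of 44 members were called, 2 higher and 2 lower, beside 3.31% of all genes, 1.66% higher and 1.65% lower. In the order given here, the called members were 35.7%, 43.5%, 4.88% and 9.09% of those with the minimum mean. At an absolute log2 fold change above 1, 11 members (26.2%) passed for HCT116 5/4 beside 11.8% of all genes. For RPE1 5/3 12/3, 11 (23.9%) passed beside 8.93%, and for RPE1* 21/3, 4 (9.09%) beside 2.56%. At that limit 0 members passed for HCT116* 8/3 c7 beside 0.490% of all genes. There 6 members (14.6%) had an unadjusted p under 0.05 in the Wald test beside 8.81% of all genes.

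The median log2 fold change of the members was 0.06 for HCT116 5/4, 0.01 for HCT116* 8/3 c7, −0.27 for RPE1 5/3 12/3 and 0.02 for RPE1* 21/3, and that of all genes lay between −0.00044 and 0.0061. By role, 6 receptors of HCT116 5/4 were higher and 1, EPHA1, was lower, while 4 ligands were higher and 4 lower. The calls of RPE1 5/3 12/3 were 2 ligands higher and 7 lower, with 6 receptors higher and 5 lower. Called were 36.8% of receptors and 34.8% of ligands in HCT116 5/4, beside 20.6% of all genes. In RPE1 5/3 12/3 these shares were 52.4% and 36.0%, beside 16.6%. Of the 17 semaphorins with the minimum mean in RPE1 5/3 12/3, 0 were called higher and 5 lower, beside 8.13% and 8.47% of all genes. In HCT116 5/4, 0 of 8 plexins and 0 of 2 neuropilins were called lower, beside 9.83% of all genes. In classes of this size a count of 0 is near the background. These counts are descriptions, and no test of receptors against ligands was made. The heat map of fold changes gives all 51 genes.

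**Figure D2:**
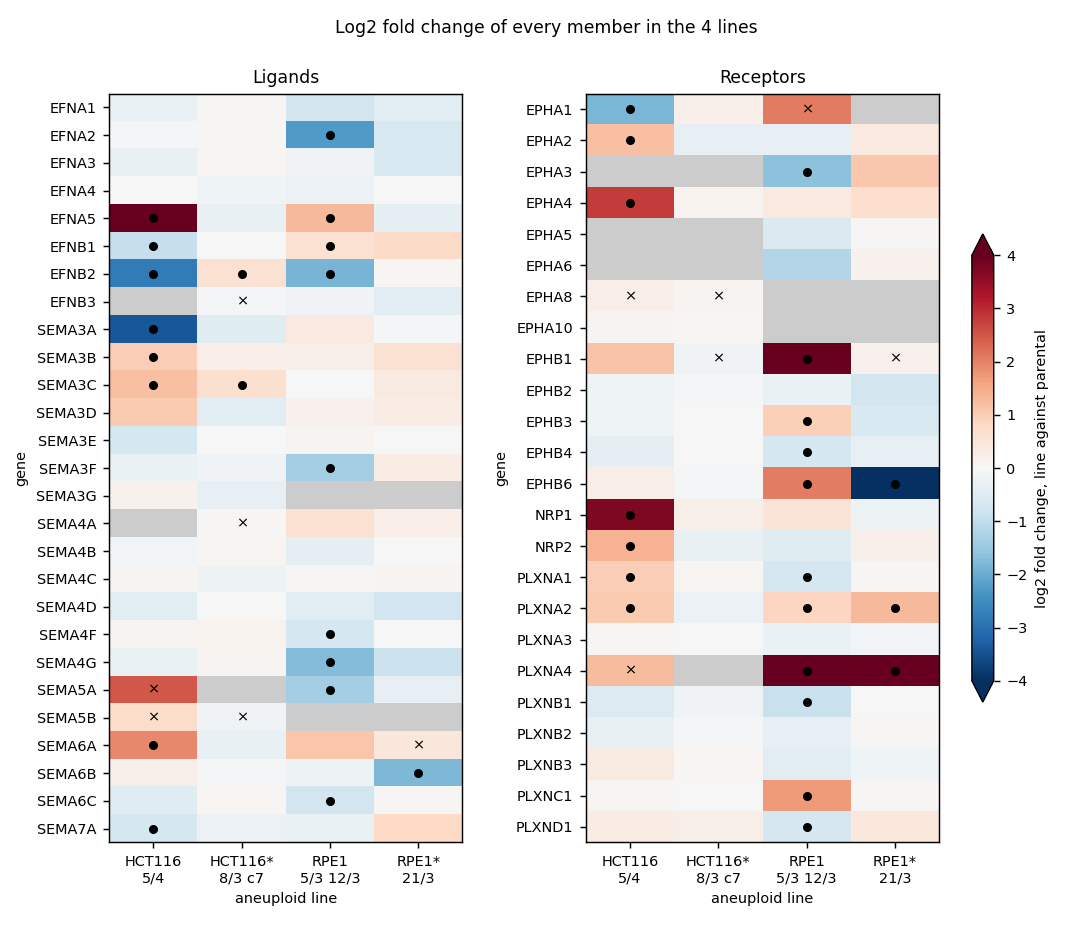
Log2 fold change of each member (rows) in each aneuploid line against its parental line (columns), ligands on the left and receptors on the right, in colour from −4 to 4. Dots mark called genes, crosses a mean under 10 and grey the absence of a row, with 15, 2, 20 and 4 dots in the 4 columns.

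Over the 4 lines, 31 of the 51 members were called at least once. PLXNA2 and EFNB2 were called in 3 lines, 6 members in 2 lines (EFNA5, EFNB1, EPHB6, PLXNA1, PLXNA4 and SEMA3C), and no member in all 4. The direction of the calls was opposite between lines for EFNB1, EFNB2, EPHB6 and PLXNA1. Counts over several lines were not made for all genes. Those of the members thus have no background and do not set the members apart. At an absolute log2 fold change above 1 EFNB1 and PLXNA1 lost both calls and EFNB2 its call in HCT116* 8/3 c7, and at a minimum mean of 100 EPHB6 lost its call in RPE1* 21/3.

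The largest called changes, in absolute deposited log2 fold change, were those of EPHB1 in RPE1 5/3 12/3, EPHB6 in RPE1* 21/3, EFNA5 in HCT116 5/4 and PLXNA4 in RPE1 5/3 12/3. The bases before their RefSeq starts are shown because these changes stand at the head of the results. The 4 windows differ widely in their number of CG pairs, CG being the pair of bases at which DNA is methylated. Each sequence below holds the 150 bases before the RefSeq start on GRCh38.p14, 5′ to 3′ on the strand of the gene, with every CG in capitals. The windows are chr3:134795110-134795259 (plus strand), chr7:142862606-142862755 (plus strand), chr5:107670938-107671087 (minus strand) and chr7:132576471-132576620 (minus strand).
EPHB1: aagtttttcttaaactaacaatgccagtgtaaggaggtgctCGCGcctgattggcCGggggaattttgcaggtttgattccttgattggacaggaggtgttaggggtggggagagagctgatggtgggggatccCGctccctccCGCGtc
EPHB6: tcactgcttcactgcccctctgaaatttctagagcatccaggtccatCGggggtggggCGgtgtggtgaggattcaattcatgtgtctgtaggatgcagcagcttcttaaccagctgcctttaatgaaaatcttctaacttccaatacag
EFNA5: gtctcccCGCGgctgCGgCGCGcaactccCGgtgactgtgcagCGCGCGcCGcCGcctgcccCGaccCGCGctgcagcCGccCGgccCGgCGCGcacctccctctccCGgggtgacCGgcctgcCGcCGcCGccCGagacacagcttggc
PLXNA4: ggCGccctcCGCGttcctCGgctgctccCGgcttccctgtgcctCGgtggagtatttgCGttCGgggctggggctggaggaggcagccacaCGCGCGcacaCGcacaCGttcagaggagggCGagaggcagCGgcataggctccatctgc
In the 250 bases before the start, the promoter of EFNA5 held 41 CG pairs, a number reached by 1.73% of the 35116 promoters of the table, whose median was 11. PLXNA4 held 23 and EPHB1 15, reached by 25.8% and 42.9% of promoters. EPHB6 held 3, reached by 77.1%. Of the 51 members 45 had a promoter in the table. The count of CG is the same on both strands, and nothing about methylation was measured here. Whether each RefSeq start is the outermost start of its gene or one inside it was not checked. The windows of EPHB6 and PLXNA4, both on chromosome 7 of GRCh38, are not offset alike from the outer starts of these genes on GRCh37. Either window may thus lie before an inner start. The counts may come from unlike regions and do not compare the genes.

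Among the ephrin A ligands, EFNA5 was the member with the clearest rise. Its gene lies on chromosome 5 (GRCh37, 106712595 to 107006638, minus strand), which both HCT116 5/4 and RPE1 5/3 12/3 gained. In HCT116 5/4 its estimated mean went from 11.2 to 256, a log2 fold change of 4.51 ± 0.35 (adjusted p = 1.2e-36) and a 22.8-fold rise. RPE1 5/3 12/3 showed a rise from 131 to 319, by 1.29 ± 0.23 (adjusted p = 3.82e-07). Without a gain of chromosome 5 it was at −0.31 ± 0.16 in HCT116* 8/3 c7 and −0.35 ± 0.28 in RPE1* 21/3, neither called. EFNA2 fell in RPE1 5/3 12/3 from 38.0 to 7.84, a log2 fold change of −2.27 ± 0.49 (adjusted p = 4.70e-05), and was between −0.65 and 0.05 in the other lines. EFNA1, EFNA3 and EFNA4 were called in no line.

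The ephrin B ligands showed opposite directions in different lines. EFNB2, the ligand that marks arterial endothelium and binds EPHB4, fell in both lines that gained chromosome 5. It went from 1365 to 196 in HCT116 5/4, a log2 fold change of −2.80 ± 0.27 (adjusted p = 9.18e-23), and from 1009 to 275 in RPE1 5/3 12/3, a change of −1.88 ± 0.24 (adjusted p = 2.91e-13). In HCT116* 8/3 c7 it rose from 730 to 1125, by 0.62 ± 0.12 (adjusted p = 3.06e-05), and in RPE1* 21/3 it was at 0.03 ± 0.31. EFNB1, an X-linked ligand, fell in HCT116 5/4 from 711 to 374, a change of −0.92 ± 0.26 (adjusted p = 0.00271), and rose in RPE1 5/3 12/3 from 243 to 374, by 0.62 ± 0.22 (adjusted p = 0.0258). It was at 0.01 ± 0.12 in HCT116* 8/3 c7 and at 0.77 ± 0.29 in RPE1* 21/3, the latter with an adjusted p of 0.147. EFNB2 is on chromosome 13 and none of the lines gained chromosome 13 or X. EFNB3 was called in no line.

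Of the EPHA receptors with the minimum mean, 3 of 4 were called in HCT116 5/4 and 1 of 5 in RPE1 5/3 12/3, beside 20.6% and 16.6% of all genes. EPHA4, a receptor that binds ephrins of both classes, rose in HCT116 5/4 from 232 to 1604, by 2.79 ± 0.23 (adjusted p = 2.49e-32), and was between 0.14 and 0.68 in the other lines without a call. EPHA2 rose there from 4030 to 9250, by 1.20 ± 0.24 (adjusted p = 7.11e-06), and was between −0.34 and 0.39 elsewhere. EPHA1, an epithelial Eph receptor, fell there from 723 to 202, a change of −1.84 ± 0.28 (adjusted p = 2.61e-09). It was at 0.22 ± 0.14 in HCT116* 8/3 c7, had a mean of 5.84 in the table of RPE1 5/3 12/3, where its log2 fold change of 2.08 ± 0.71 was not counted, and had no row for RPE1* 21/3. EPHA3 fell in RPE1 5/3 12/3 from 49.4 to 15.7, a change of −1.66 ± 0.44 (adjusted p = 0.00163), and was at 1.07 ± 0.41 in RPE1* 21/3 with an adjusted p of 0.164.

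Of the EPHB receptors 4 of 5 were called in RPE1 5/3 12/3, beside 16.6% of all genes. None of the 5 was called in HCT116 5/4, beside 20.6% of all genes. There 1 had an unadjusted p under 0.05 in the Wald test of the table, beside 31.1% of all genes. The fold changes of these lines differed by the test of the difference for EPHB1 alone, with adjusted p of 0.0535 for EPHB3, 0.094 for EPHB6, 0.507 for EPHB4 and 0.88 for EPHB2. In RPE1 5/3 12/3 EPHB1 rose from 3.94 to 132, by 5.07 ± 0.48 (adjusted p = 4.85e-24), the largest deposited log2 fold change of any member. With the prior undone it was 5.66, below the 6.92 of PLXNA4 in the same line and smaller in size than the −5.73 of EPHB6 in RPE1* 21/3, and its mean was under 100, the stricter minimum tried. It was at 1.14 ± 0.55 in HCT116 5/4, without a call, and at means of 5.02 and 5.50 in the tables of HCT116* 8/3 c7 and RPE1* 21/3. EPHB3 rose in RPE1 5/3 12/3 from 34.7 to 66.7, by 0.94 ± 0.34 (adjusted p = 0.0307), and EPHB4 fell from 2018 to 1241, a change of −0.70 ± 0.17 (adjusted p = 7.22e-04). Neither was called elsewhere. In EPHB4 1.58% of the exon bases overlap SLC12A9.

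EPHB6, an Eph receptor without kinase activity, moved in opposite directions in the RPE1 lines. It went from 125 to 5.00 in RPE1* 21/3, a log2 fold change of −4.64 ± 0.44 (adjusted p = 2.74e-23) or a 25.0-fold fall. With the prior undone the change was −5.73, and at a minimum mean of 100 this call was lost. The estimated mean went from 41.4 to 172 in RPE1 5/3 12/3, a change of 2.05 ± 0.73 (adjusted p = 0.0294). The standard error of the rise was larger than that of 99.4% of the 500 genes of most similar mean, whose median standard error was 0.27, its 95% interval ran from 0.62 to 3.49, and with the prior undone the change was 3.06. In the HCT116 lines EPHB6 was at 0.26 ± 0.26 and −0.05 ± 0.14. The means of the parental groups, 125 for RPE1* and 41.4 for RPE1, come from tables normalized apart.

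Of the secreted class 3 semaphorins 3 were called in HCT116 5/4, 1 in HCT116* 8/3 c7 and 1 in RPE1 5/3 12/3. Over all semaphorins with the minimum mean, 5 of 16, 1 of 16 and 5 of 17 were called in these lines, beside 20.6%, 1.80% and 16.6% of all genes. SEMA3A, a repellent that acts through NRP1 and A-type plexins, fell in HCT116 5/4 from 1015 to 96.3, a log2 fold change of −3.40 ± 0.23 (adjusted p = 1.84e-45) or a 10.5-fold fall. In HCT116* 8/3 c7 it went from 4559 to 3249, a change of −0.49 ± 0.15 with an adjusted p of 0.0349, short of the fold threshold. The means of the parental groups, 1015 for HCT116 and 4559 for HCT116*, come from tables normalized apart. In the RPE1 lines SEMA3A was at 0.40 ± 0.18 and −0.08 ± 0.32, not called. SEMA3C rose in both HCT116 lines, from 745 to 1712 or by 1.20 ± 0.24 (adjusted p = 1.22e-05) in HCT116 5/4 and from 431 to 667 or by 0.63 ± 0.16 (adjusted p = 0.00372) in HCT116* 8/3 c7. It is the most abundant semaphorin of the RPE1 lines and was at 0.01 ± 0.25 and 0.37 ± 0.35 there.

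SEMA3B and SEMA3F, neighbours in a region of chromosome 3 that is often lost in carcinomas, changed in different lines. SEMA3B rose in HCT116 5/4 from 588 to 1161, by 0.98 ± 0.32 (adjusted p = 0.0147), and was between 0.22 and 0.62 in the other lines without a call. SEMA3F fell in RPE1 5/3 12/3 from 4831 to 1864, a change of −1.37 ± 0.19 (adjusted p = 4.75e-11), and was between −0.26 and 0.29 elsewhere. The genes of SEMA3A, SEMA3C, SEMA3D and SEMA3E lie together on chromosome 7 between 80371854 and 84816372. The log2 fold changes of these neighbours in HCT116 5/4 were −3.40 for SEMA3A, 1.20 for SEMA3C, 1.03 ± 0.42 for SEMA3D (adjusted p = 0.0601) and −0.69 ± 0.43 for SEMA3E (adjusted p = 0.281), so that the calls in this stretch went both ways.

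Of the 11 membrane-bound semaphorins listed for RPE1 5/3 12/3, 4 were called, all lower, and 7 were not called. Of all genes 8.47% were called lower there. Apart from SEMA5A, described with the gained chromosomes, SEMA4G went from 249 to 75.2, a change of −1.73 ± 0.25 (adjusted p = 1.90e-10), SEMA4F from 1078 to 667, a change of −0.69 ± 0.19 (adjusted p = 0.00291), and SEMA6C from 163 to 97.5, a change of −0.75 ± 0.24 (adjusted p = 0.013). In SEMA4G 18.4% of the exon bases overlap MRPL43, and reads were counted without use of strand. SEMA4G was at −0.86 ± 0.28 in RPE1* 21/3 with an adjusted p of 0.067. SEMA4F and SEMA6C were not called in the other lines. SEMA6B, the highest semaphorin of HCT116 per kb, fell in RPE1* 21/3 from 1537 to 438, a change of −1.81 ± 0.20 (adjusted p = 3.26e-17), and was between −0.22 and 0.21 in the other lines. SEMA7A, which is anchored by a lipid and binds PLXNC1, fell in HCT116 5/4 from 334 to 207, a change of −0.69 ± 0.26 (adjusted p = 0.0347), and was at 0.79 ± 0.35 in RPE1* 21/3, with no call.

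Both neuropilins rose in HCT116 5/4. NRP1 went from 52.1 to 691, a log2 fold change of 3.73 ± 0.35 (adjusted p = 4.30e-25) and a 13.3-fold rise, with a standard error larger than that of 98.6% of the 500 genes of most similar mean. NRP2, the co-receptor of SEMA3F, went from 21.5 to 56.0, a change of 1.38 ± 0.40 (adjusted p = 0.00386). In HCT116* 8/3 c7 the values were 0.24 ± 0.18 and −0.30 ± 0.17, and neither was called. NRP1 of RPE1 5/3 12/3, already at 17231 in RPE1, was at 0.53 ± 0.17 (adjusted p = 0.0125), short of the fold threshold, and NRP2 was at −0.50 ± 0.19 (adjusted p = 0.0529). In RPE1* 21/3 they were at −0.22 ± 0.28 and 0.21 ± 0.30.

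PLXNA4, the A-type plexin that serves SEMA3A and SEMA6A in neurons, was the member with the largest rise common to both RPE1 lines. In RPE1* 21/3 it went from 359 to 6094, a log2 fold change of 4.09 ± 0.30 (adjusted p = 3.65e-39). The estimated mean went from 977 to 20123 in RPE1 5/3 12/3, a change of 4.37 ± 0.75 (adjusted p = 1.86e-07). That standard error was larger than those of all 500 genes of most similar mean, whose median was 0.18, and with the prior on the fold changes undone the change was 6.92 in RPE1 5/3 12/3, a rough value, and 4.43 in RPE1* 21/3. The difference of the lines was 0.28 with a 95% interval from −1.31 to 1.87 (adjusted p = 0.948), which leaves its size undetermined. The mean was 8.45 for HCT116 5/4, under the minimum, and HCT116* 8/3 c7 had no row for it.

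PLXNA2 rose in 3 lines. It went from 499 to 1239 in RPE1* 21/3, by 1.31 ± 0.20 (adjusted p = 4.86e-09), from 684 to 1249 in RPE1 5/3 12/3, by 0.87 ± 0.24 (adjusted p = 0.00254), and from 55.7 to 115 in HCT116 5/4, by 1.04 ± 0.31 (adjusted p = 0.00587). In HCT116* 8/3 c7 it was at −0.25 ± 0.18. It is the only member that was called in 3 lines in 1 direction, and it lost the call in HCT116 5/4 at a minimum mean of 100 and that in RPE1 5/3 12/3 at a log2 fold change above 1. PLXNA1, a receptor for secreted semaphorins together with neuropilins, rose in HCT116 5/4 from 2139 to 4207, by 0.98 ± 0.24 (adjusted p = 5.62e-04), fell in RPE1 5/3 12/3 from 2811 to 1742, a change of −0.69 ± 0.21 (adjusted p = 0.00644), and was at 0.08 ± 0.12 and 0.05 ± 0.28 in the other lines.

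Of the other plexins 3 were called in RPE1 5/3 12/3. Over all plexins 6 of 9 were called there, beside 16.6% of all genes. PLXNB1, the receptor of SEMA4D, fell from 1573 to 850, a change of −0.89 ± 0.22 (adjusted p = 6.93e-04), and PLXND1, the receptor of SEMA3E, fell from 1727 to 1092, a change of −0.66 ± 0.21 (adjusted p = 0.0103). PLXNC1, the receptor of SEMA7A, lies on chromosome 12 (GRCh37, 94542353 to 94701451, plus strand), where 2.36% of its exon bases overlap CEP83. It rose from 35.7 to 116, by 1.70 ± 0.31 (adjusted p = 8.98e-07). None of the 3 was called in another line. PLXNB2, PLXNA3 and PLXNB3 were called in no line. The plot of estimated group means shows the levels behind the calls.

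**Figure D3:**
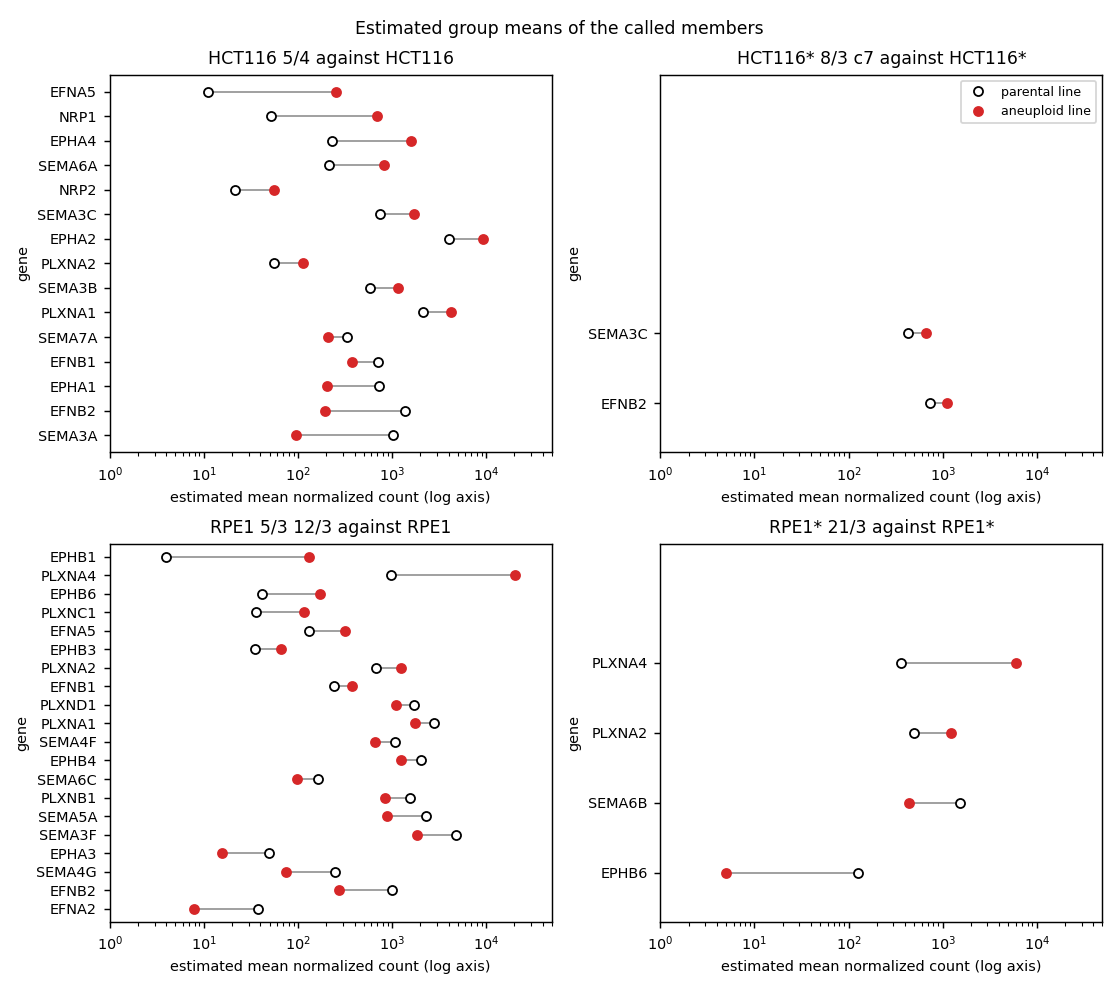
Estimated mean normalized count (log axis) of every called member in the parental line (open circles) and the aneuploid line (red circles), 1 panel per comparison, genes ordered by log2 fold change, with no error bars because single libraries were not given. EPHB1 goes from 3.94 to 132 and PLXNA4 from 977 to 20123 in RPE1 5/3 12/3, and EPHB6 from 125 to 5.00 in RPE1* 21/3.

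Only 4 members lie on a chromosome that one of the lines gained, EFNA5, SEMA5A and SEMA6A on chromosome 5 and PLXNC1 on chromosome 12, and none lies on chromosome 8 or 21. Genes of chromosome 5 had a median log2 fold change of 0.79 in HCT116 5/4 (619 genes) and of 0.53 in RPE1 5/3 12/3 (620 genes), and those of chromosome 12 one of 0.43 in RPE1 5/3 12/3 (685 genes). SEMA6A, a transmembrane semaphorin, rose in HCT116 5/4 from 214 to 815, by 1.93 ± 0.27 (adjusted p = 7.25e-11), and was at 1.09 ± 0.49 in RPE1 5/3 12/3, where it was low and not called (adjusted p = 0.109). Without that gain it was at −0.29 ± 0.16 in HCT116* 8/3 c7 and had a mean of 4.85 for RPE1* 21/3. The rise of EFNA5 in HCT116 5/4 was exceeded by 5.33% of the genes of chromosome 5 and that in RPE1 5/3 12/3 by 9.84%. The rise of PLXNC1 was exceeded by 3.07% of the genes of chromosome 12.

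SEMA5A went against the gained copy in RPE1 5/3 12/3. Its gene is at 9035145 to 9546187 of chromosome 5 (GRCh37, minus strand), and its estimated mean went from 2301 to 894, a log2 fold change of −1.36 ± 0.25 (adjusted p = 7.44e-07), below 98.2% of the genes of the chromosome. HCT116 5/4 had a value of 2.48 ± 0.71 with an adjusted p of 0.0036 but a mean of 8.00, under the minimum, so that it was not counted. In RPE1* 21/3 it was at −0.33 ± 0.26, and HCT116* 8/3 c7 had no row for it.

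Differences between lines were tested on the fold changes themselves, for pairs of lines that share a gained chromosome or a parental cell type. Between HCT116 5/4 and RPE1 5/3 12/3, which both gained chromosome 5, 15 of 39 members differed, beside 18.5% of all genes tested. EFNA5 rose more in HCT116 5/4, by 3.23 ± 0.41 (adjusted p = 4.47e-13), NRP1 by 3.20 ± 0.39 (adjusted p = 8.02e-15) and EPHA4 by 2.41 ± 0.30 (adjusted p = 7.52e-14). SEMA3A and EPHB1 were lower in HCT116 5/4, with differences of −3.80 ± 0.30 (adjusted p = 4.84e-35) and −3.93 ± 0.73 (adjusted p = 1.59e-06). EFNB2, which fell in both, differed by −0.93 with a 95% interval from −1.64 to −0.21 (adjusted p = 0.0561). PLXNA2, which rose in both, differed by 0.17 with an interval from −0.59 to 0.94 (adjusted p = 0.834).

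Between HCT116 5/4 and HCT116* 8/3 c7, 13 of 41 members differed, beside 18.9% of all genes. EFNA5, NRP1, EPHA4 and SEMA6A were higher in HCT116 5/4 by 4.82, 3.49, 2.65 and 2.22, and EFNB2, SEMA3A and EPHA1 were lower there, with differences of −3.43, −2.91 and −2.05. SEMA3C, called higher in both lines, differed by 0.57 ± 0.29 (adjusted p = 0.18). SEMA3D, called in neither line, differed by 1.49 ± 0.45 (adjusted p = 0.0079). Between RPE1 5/3 12/3 and the line RPE1* 21/3, 9 of 44 members differed, beside 9.32% of all genes. EPHB6 had the largest difference of any pair, 6.70 ± 0.85 (adjusted p = 9.31e-13). EPHA3 differed by −2.72 ± 0.60 (adjusted p = 0.000178), EFNB2 by −1.91 ± 0.39 (adjusted p = 5.46e-05) and SEMA6B by 1.60 ± 0.29 (adjusted p = 3.27e-06).

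**Figure D4:**
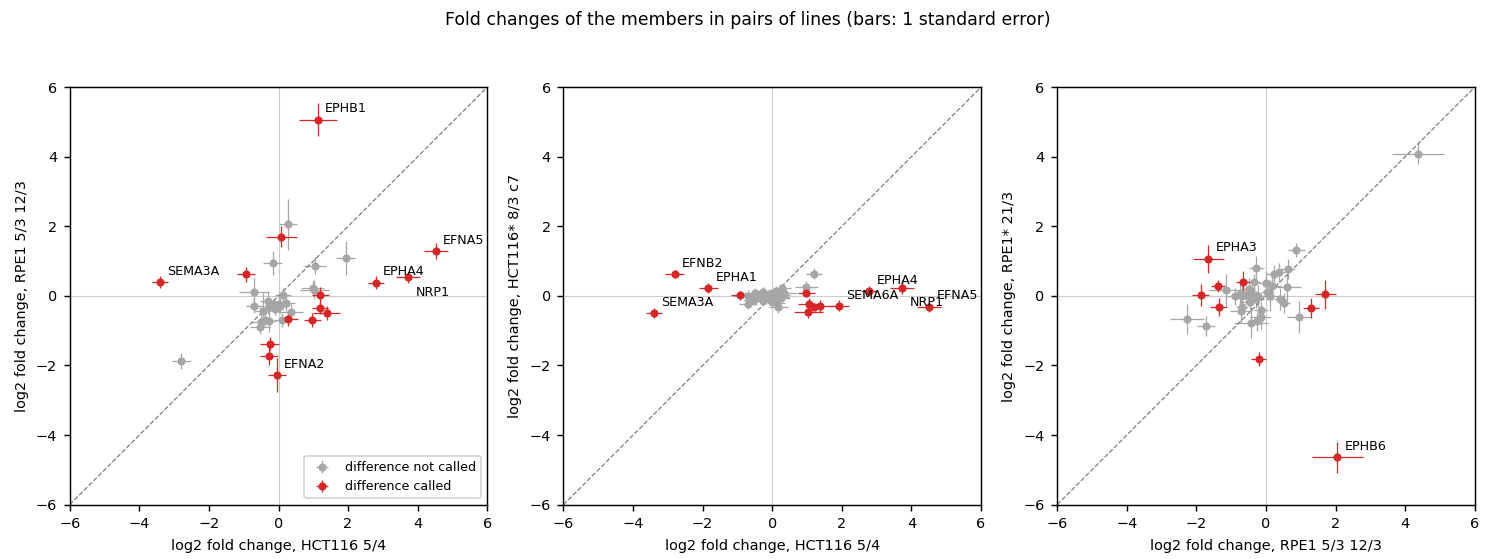
Log2 fold change of each member in one line against that in another, 1 panel per pair of lines, with bars of 1 standard error in both directions, red where the difference was called and named where it also exceeded 2. Points on the dashed line changed equally, and 15, 13 and 9 members are red, EPHB6 lying farthest from the line in the right panel.

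Of the partners and effectors of Eph signalling, 9 of 35 were called in HCT116 5/4, 5 higher and 4 lower, 6 of 33 in RPE1 5/3 12/3, 2 higher and 4 lower, 2 of 33 in RPE1* 21/3, both higher, and 0 of 34 in HCT116* 8/3 c7, where 6 had an unadjusted p under 0.05 in the Wald test, beside 8.81% of all genes. These shares were 25.7%, 18.2%, 6.06% and 0% of the list, beside 20.6%, 16.6%, 3.31% and 1.80% of all genes, so that those of the lines with a gained chromosome 5 were near the background. PIK3R1, a regulatory subunit of the PI3 kinase on chromosome 5, and RASA1, a RAS GTPase-activating protein on chromosome 5, rose in both lines that gained that chromosome, by 1.65 ± 0.21 and 0.93 ± 0.22 in HCT116 5/4 and by 0.70 ± 0.20 and 0.83 ± 0.17 in RPE1 5/3 12/3. The 2 genes called in RPE1* 21/3, TIAM1 and ITSN1, are exchange factors whose genes lie on chromosome 21, at 0.93 ± 0.24 and 0.74 ± 0.20. KALRN, another exchange factor downstream of Eph receptors, fell in RPE1 5/3 12/3 (−2.02 ± 0.24), and the kinase FYN fell in HCT116 5/4 (−0.71 ± 0.21).

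Of the partners and effectors of semaphorin signalling, 13 of 41 were called in HCT116 5/4, 10 higher and 3 lower, 11 of 36 in RPE1 5/3 12/3, 3 higher and 8 lower, 2 of 40 in HCT116* 8/3 c7 and 2 of 37 in RPE1* 21/3, all 4 lower. These were 31.7%, 30.6%, 5.00% and 5.41% of the list, beside 20.6%, 16.6%, 1.80% and 3.31% of all genes. FLT4, a receptor for vascular endothelial growth factors on chromosome 5, rose by 7.18 ± 0.36 in HCT116 5/4, and ITGA1, the chromosome 5 integrin subunit that binds collagen, by 4.27 ± 0.31. MET, the receptor that associates with plexin B1, fell there (−3.53 ± 0.25), as did RND3, a plexin-binding GTPase (−2.89 ± 0.26). DPYSL4, of the family of collapsin response mediators, fell in RPE1 5/3 12/3 (−6.39 ± 0.55) and ITGA1 rose (1.25 ± 0.23). DPYSL3 of the same family rose in the 2 lines that gained chromosome 5, HCT116 5/4 (1.96 ± 0.20) and RPE1 5/3 12/3 (0.69 ± 0.24). It fell in HCT116* 8/3 c7 and in RPE1* 21/3 (−0.995 ± 0.146 and −0.85 ± 0.25). The part of the gained chromosome in this was not tested. RHOD, a GTPase that binds plexins, fell in RPE1* 21/3 (−5.39 ± 0.46).

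The other guidance families, slits and ROBO receptors, netrins and their receptors, RGM and FLRT proteins, were called in 3 of 13 genes in HCT116 5/4, all higher, in 1 of 12 in HCT116* 8/3 c7, lower, in 10 of 16 in RPE1 5/3 12/3, 8 higher and 2 lower, and in 4 of 13 in RPE1* 21/3, all higher. These were 23.1%, 8.33%, 62.5% and 30.8% of the list, beside 20.6%, 1.80%, 16.6% and 3.31% of all genes, the first of them near the background. UNC5B, a netrin receptor, rose in both RPE1 lines, by 2.80 ± 0.31 and 2.21 ± 0.42. ROBO4 rose by 3.67 ± 0.33 and UNC5D fell (−5.44 ± 0.66) in RPE1 5/3 12/3. The medians of this list were 0.35, −0.04, 0.42 and 0.31 in the 4 lines, those of the Eph partners −0.10, 0.01, −0.05 and 0.01, and those of the semaphorin partners 0.06, −0.04, −0.29 and −0.05.

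The members that passed the minimum and were not called had log2 fold changes from −0.69 to 1.14 in HCT116 5/4 (27 genes), from −0.49 to 0.27 in HCT116* 8/3 c7 (39 genes), from −1.16 to 1.09 in RPE1 5/3 12/3 (26 genes), and from −0.86 to 1.07 in RPE1* 21/3 (40 genes). In HCT116* 8/3 c7, which had the narrowest range, the median ratio of a fold change with the prior undone to the deposited one was 1.22, beside 1.02 to 1.05 in the other tables. The 20 members called in no line were EFNA1, EFNA3, EFNA4, EFNB3, EPHA5, EPHA6, EPHA8, EPHA10, EPHB2, PLXNA3, PLXNB2, PLXNB3, SEMA3D, SEMA3E, SEMA3G, SEMA4A, SEMA4B, SEMA4C, SEMA4D and SEMA5B, with values from −1.16 for EPHA6 to 1.03 for SEMA3D. EPHA8 and SEMA5B had a mean under 10 in every table that listed them. EPHA5, the second most abundant EPHA receptor per kb in the RPE1 tables over both groups, was at −0.57 ± 0.22 in RPE1 5/3 12/3 with an adjusted p of 0.0524.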

How the data were processed

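Messenger RNA of 4 aneuploid lines and of the parental line of each was measured in 3 libraries per group. Per the labels, the authors trimmed reads with cutadapt, aligned them to hg19 with TopHat2 2.0.10 at 1 location per read, counted reads on RefSeq exons with featureCounts 1.4.3, with no strand setting stated, and ran DESeq2 for each aneuploid line against the parental one. The deposited signal is the mean over the 6 libraries of counts scaled by size factors. The deposited log2 values are the fold change of the authors' fit and its error, the deposited score is its Wald statistic, and the deposited p-value is that of the statistic, which the authors adjusted by the Benjamini-Hochberg method across the table. These comparison columns were used here because no values of single libraries were, and the count model first foreseen was therefore not fitted. Sequencing depth cannot be read from the tables. The standard errors, the measure of precision, had medians of 0.14 to 0.25 among genes that reached the minimum mean of 10. Each adjusted p in the text is the deposited one, except for differences between lines. There the difference was divided by the root of the summed squared standard errors, and two-sided normal p-values were adjusted by the Benjamini-Hochberg method over every gene that reached the minimum in both tables. That test and the removal of the prior were tested on simulated data.

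Group means were estimated from the mean and the fold change, and the prior on fold changes pulls them together. The prior was undone from the ceiling it puts on standard errors, which was sharp for HCT116* 8/3 c7 (250 genes within 0.1%) and RPE1* 21/3 (150 genes) and poorly defined for the other tables (1 and 3 genes). Genes were placed by symbol in GENCODE on GRCh37, 94.7% to 95.2% of a table. Named are the members called in at least 1 line, those on gained chromosomes and the highest of each class per kb. The other members named, the partner genes picked from their lists and the promoters shown were chosen after their values were seen. Members and lists were chosen with earlier results of these data known. Alternatives were other limits on the mean and on the fold change, adjustment over genes above the minimum, centred fold changes and the prior undone. Calculations ran in Python 3.11.15 with scipy 1.17.1, numpy 2.4.6 and pandas 2.3.3, and plots in matplotlib 3.10.9.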

Additional observations from a re-analysis of the deposited data

Results flagged for a closer look

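The results below are those in which the log2 fold changes of 2 lines differed by the test of the difference itself. For HCT116 5/4 minus RPE1 5/3 12/3 the differences were −3.93 for EPHB1, −3.80 for SEMA3A, −1.63 for PLXNC1, −1.54 for EFNB1, 0.95 for PLXND1, 1.12 for SEMA3F, 1.19 for SEMA3C, 1.46 for SEMA4G, 1.54 for EPHA2, 1.67 for PLXNA1, 1.88 for NRP2, 2.23 for EFNA2, 2.41 for EPHA4, 3.20 for NRP1 and 3.23 for EFNA5. For HCT116 5/4 minus HCT116* 8/3 c7 they were −3.43 for EFNB2, −2.91 for SEMA3A, −2.05 for EPHA1, −0.94 for EFNB1, 0.89 for PLXNA1, 1.29 for PLXNA2, 1.49 for SEMA3D, 1.52 for EPHA2, 1.68 for NRP2, 2.22 for SEMA6A, 2.65 for EPHA4, 3.49 for NRP1 and 4.82 for EFNA5. For RPE1 5/3 12/3 minus RPE1* 21/3 they were −2.72 for EPHA3, −1.91 for EFNB2, −1.67 for SEMA3F, −1.07 for PLXND1, −1.03 for SEMA5A, 1.60 for SEMA6B, 1.63 for EFNA5, 1.66 for PLXNC1 and 6.70 for EPHB6. EFNA5 differed in all 3 pairs, and the standard errors of EPHB6 in the RPE1 lines exceeded those of 99.4% and 96.4% of the 500 genes of most similar mean. No explanation of these differences was tested.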

How the results depend on the processing

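The counts of called members were within 1.5 times of those given under every alternative but 1. An absolute log2 fold change above 1 in place of 0.60 gave 11 members in RPE1 5/3 12/3 and 0 in HCT116* 8/3 c7 in place of 20 and 2, by the construction of a stricter limit. Without a minimum on the mean SEMA5A in HCT116 5/4 and EPHA1 in RPE1 5/3 12/3 were added, and with a minimum of 100 the counts were 13, 2, 15 and 3. Without a limit on the fold change SEMA3A in HCT116* 8/3 c7 and NRP1 in RPE1 5/3 12/3 were added. With the prior undone SEMA3A in HCT116* 8/3 c7 passed the limit at −0.62, and no other call of a member changed. The tests between lines kept within 1.5 times too. Of their calls, PLXND1 and SEMA5A in the RPE1 pair were lost with the prior undone, and PLXND1 also with centred fold changes. Adjustment of p over the genes above the minimum, and centring, changed no call against a parental line. No called member changed direction under these alternatives.

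No paired analysis was possible because single libraries were not used here, and for the same reason leaving out each replicate was not run. Depth cannot be read from the tables, and whether a single library carries a large change, such as that of PLXNA4 in RPE1 5/3 12/3, cannot be seen.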
